A study of Mus musculus with 6 samples.

Results

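The Obox genes are a rodent family of homeobox genes, and their rows were taken from the expression files as every gene whose symbol begins with Obox. They came to 55 of 55335 genes, 7 coding copies (Obox1, Obox2, Obox3, Obox5, Obox6, Obox7 and Obox8) and 48 rows named as pseudogenes. Of these rows 15 reached 1 FPKM (fragments per kilobase of transcript, scaled to the mapped fragments of the library) in at least 1 library. RNA came from mouse embryos at the 4-cell stage and was amplified by Smart-Seq2, an oligo-dT method that copies full-length polyadenylated RNA. There were 3 libraries of embryos labelled Con, the control, and 3 of embryos exposed to DRB, a nucleoside analogue that blocks elongation by RNA polymerase II through inhibition of the CDK9 kinase. DRB was given at 20 µM from 6 h after fertilization for 20 h, was washed out, and the embryos then grew for another 26 h. The labels name no strain or genotype, and they give neither a vehicle for Con nor the number of embryos per library. Whether the replicates are separate collections of embryos is not recorded, so the spread behind each p-value is that between libraries and may be technical.

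A homeobox encodes a DNA-binding domain whose recognition helix lies in the major groove of DNA. Obox genes belong to the paired-like homeobox genes that are active in oocytes and cleavage embryos, and most of them sit in 1 cluster on chromosome 7. Obox1, Obox2, Obox5 and Obox7 are known mainly as transcripts that the egg supplies, and Obox3 and Obox4 as transcripts that the embryo makes when its genome is activated. Obox proteins have been linked to the loading of RNA polymerase II at genes of that activation, and Obox6 has been described as dispensable for mouse development.

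The copies differ in how much sequence they share, which bears on how surely a read can be given to one of them. Shown here are the 60 bases around the recognition helix of each coding copy and the best ungapped match to the Obox3 bases in selected pseudogenes. They were read from the longest GENCODE M21 transcript (GRCm38) of each row, and for Obox3 from the longest that encodes the helix. Capitals mark the bases that differ from Obox3.
Obox3: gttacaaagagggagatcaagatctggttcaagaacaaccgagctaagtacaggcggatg
Obox1: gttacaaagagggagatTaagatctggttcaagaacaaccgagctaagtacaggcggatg
Obox2: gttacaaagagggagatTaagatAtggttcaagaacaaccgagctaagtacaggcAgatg
Obox5: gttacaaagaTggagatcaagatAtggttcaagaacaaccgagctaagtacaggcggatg
Obox7: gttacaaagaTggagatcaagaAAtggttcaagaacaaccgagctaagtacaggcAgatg
Obox6: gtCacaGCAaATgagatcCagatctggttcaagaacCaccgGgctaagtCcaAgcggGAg
Obox8: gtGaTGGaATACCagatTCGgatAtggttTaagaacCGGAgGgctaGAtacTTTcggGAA
Obox3-ps6: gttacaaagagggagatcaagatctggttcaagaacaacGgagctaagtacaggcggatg
Obox4-ps20: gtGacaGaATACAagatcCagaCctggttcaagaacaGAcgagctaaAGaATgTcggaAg
Obox4-ps35: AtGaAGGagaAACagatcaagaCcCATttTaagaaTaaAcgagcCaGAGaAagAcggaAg

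Obox1, Obox2, Obox5 and Obox7 differed from Obox3 at 1, 3, 2 and 4 of the 60 bases, whereas Obox6 and Obox8 differed at 13 and 27. Obox3-ps6, the member with the largest difference between the groups, differed at 1 base. Obox4-ps20 is shown because 15 Obox4 rows, Obox4-ps12 to Obox4-ps23 among them, carried exactly its 60 bases. Obox4-ps35 has no window closer than the 22 differences shown. Over whole transcripts, 100-base windows were compared with all other annotated transcripts. All windows of Obox6 and of Obox8 were found in no other gene, against 98.2% for Obox5, 97.7% for Obox7, 91.1% for Obox3, 57.7% for Obox1 and 52.8% for Obox2. Values of Obox1 and Obox2, whose longest transcripts aligned at 98.8% identity, are therefore uncertain as a split of shared reads. In addition, 1 exon of Obox1 (chr7:15388948-15389006) overlaps an exon of Obox2.

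Of the 5 Obox promoters in the RefSeq table (GRCm38.p6), those of Obox1, Obox3, Obox5 and Obox7 hold nearly the same bases around TATATAAG. The 30 bases there are shown for these 4, with TATATAAG in capitals, because they are sequence that copies of different level have in common.
Obox1, chr7:15547227-15547256, plus strand: gtttgcagagaTATATAAGggcaggtcttc
Obox3, chr7:15639789-15639818, minus strand: gtttggagagaTATATAAGggcaggtcttc
Obox5, chr7:15750328-15750357, plus strand: gtttgcagagaTATATAAGggcaggtcttc
Obox7, chr7:14659692-14659721, plus strand: gtttgcagagaTATATAAGggcaggtcttc

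TATATAAG, on either strand, was present in these 4 of the 5 Obox promoters and in 1.01% of all 32851 promoters of 300 bases. It lies in the stretch shown above that these 4 share. The promoters of the 4 had the same base at 61.1% to 93.7% of aligned positions, so they are not independent occurrences. The first base of TATATAAG lay 19, 30, 31 and 5 bases upstream of the RefSeq start of Obox1, Obox3, Obox5 and Obox7. In GENCODE M21 each window of 30 bases overlaps an annotated exon. The Obox2 window ends before that position, but all 5 hold the same 25 bases (gtgagaattaaggatttgaatattg), and the Obox2 and Obox1 promoters were identical over the 203 bases that could be aligned. GGATTA, the core site of homeodomains of the bicoid type, was searched on both strands and found in 1 of the 5 promoters, that of Obox3, and in 7.06% of all promoters. Obox6 and Obox8 have no entry in that table.

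The files give FPKM with no counts. From the steps of 1 fragment among low values, the depth was estimated at 21900000 to 26000000 fragments per library. It was picked so that the largest share of low values came within 0.15 of whole fragments. That share, 72.9% to 81.4%, is therefore part of the fit and no check on it. Across tested genes, libraries of Con correlated with each other at a Pearson's r of 0.935 to 0.944, those of DRB at 0.909 to 0.937, and libraries of different groups at 0.869 to 0.915. Dppa3, an oocyte and cleavage-stage gene, stood at 13434 to 24780 FPKM in all libraries, and all 12 preimplantation markers passed the filter on low values. The median log2 fold change of these markers was -0.45, against -0.09 for all tested genes. It was above 0 in 2 markers, against 44.01% of all tested genes. At an unadjusted limma p below 0.05 there were 5 markers, against 18.1% of all tested genes. Where 0.95% of all tested genes were called lower and 1.53% higher, 1 of the 12 markers was called lower and 0 higher. The one called, named here after its values were seen, was Pramel6, an oocyte and preimplantation gene, which fell from 481.62, 377.08 and 222.27 FPKM in Con to 80.51, 80.3 and 59.71 FPKM in DRB (log2 fold change -2.22 ± 0.32 SE, limma adjusted p 0.006725). Cumulus cell markers summed to 213 to 387.1 FPKM in Con and 144.2 to 275.7 in DRB, most of it Gja1, a gap junction gene that embryos also express, at 120.95 to 363.71 FPKM. Amhr2, a hormone receptor gene, was at 17.87 to 28.23 FPKM in all libraries, and 3 of the 7 (Has2, Ptx3 and Fshr) were listed at 0 throughout. The 7 sperm markers summed to 12.67 to 22.67 and 12.54 to 24.23 FPKM, led by Ldhc, and the 7 blood markers to 77.44 to 124.3 and 59.86 to 102.6 FPKM, led by Hba-a1. Genes of the mitochondrial genome took 12.23% to 19.96% of all FPKM in Con and 23.94% to 26.36% in DRB, which lowers the FPKM of other genes in DRB. With mitochondrial genes left out, the log2 fold changes described below were -0.88 instead of -1.02 for Obox6 and 2.40 instead of 2.31 for Obox3-ps6, and the same 1 Obox row was called.

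Obox RNA in these embryos was mostly Obox6 and Obox8, the copies at the far ends of the cluster, and neither was called different between the groups. Summed over the 55 rows, Obox RNA came to 2847, 1962 and 1248 FPKM in Con replicates 1 to 3 and to 864.3, 1684 and 1337 FPKM in DRB replicates 1 to 3. The groups overlap, and the sum made up 0.1145% to 0.2452% of all FPKM in Con and 0.08351% to 0.1415% in DRB. Obox6 alone supplied 68.93% ± 4.93 of the Obox sum in Con and 52.25% ± 6.09 in DRB (SD, n = 3), and Obox8 supplied 27.4% ± 5.08 and 37.6% ± 6.06. All pseudogene rows together supplied 1.65% ± 0.427 in Con and 6.41% ± 3.35 in DRB. In bulk embryo RNA, fewer cells that express a gene and less RNA per cell cannot be told apart.

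Obox6 (ENSMUSG00000041583.8, chr7:15833241-15839678, minus strand) ranked between 110 and 183 of all rows by FPKM in Con and between 183 and 351 in DRB. It was at 1826.5, 1346.35 and 923.66 FPKM in Con and at 393, 909.79 and 765.34 FPKM in DRB. All DRB libraries lay below all Con libraries, but only just, with DRB replicate 2 a little under Con replicate 3 and DRB replicate 1 far lower. The means were 1366 ± 451.7 and 689.4 ± 266.6 FPKM (SD, n = 3), with a log2 fold change of -1.02 ± 0.36 SE that did not pass the limma test over all genes (adjusted p 0.1659, unadjusted p 0.01652). Fold changes here and below are DRB over Con on the log2(FPKM + 1) scale, which understates changes of low genes, and called means a Benjamini-Hochberg adjusted p below 0.05. Obox6 is one of the best determined members, since all its windows are its own and its values correspond to an estimated 10979 to 49112 fragments.

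Obox8 (ENSMUSG00000099216.1, chr7:14331436-14333557, minus strand) is the coding copy at the other end, and its windows are likewise all its own. It was at 928.52, 530.43 and 280.49 FPKM in Con and at 378.65, 534.09 and 497.48 FPKM in DRB. The DRB values fell inside the Con range, and the log2 fold change was -0.15 ± 0.39 SE (adjusted p 0.8854 by limma). Without Con replicate 1 the fold change turned positive, at 0.27. In the ratio of Obox6 to Obox8, Con replicates 1 to 3 had 1.967, 2.538 and 3.293 and DRB replicates 1 to 3 had 1.038, 1.703 and 1.538. Every DRB library thus had less Obox6 per Obox8 than every Con library, a ratio formed after the values were seen and not tested.

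**Figure D1:**
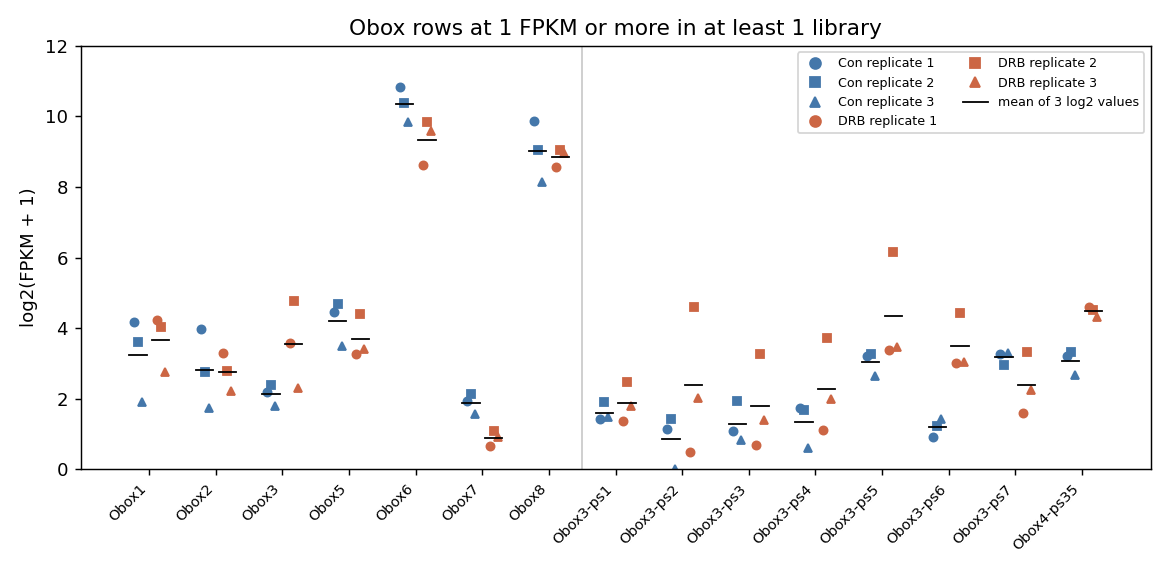
Level of the 15 Obox rows that reached 1 FPKM in at least 1 library, as log2(FPKM + 1), with 1 point per library (blue Con, orange DRB, the marker shape giving the replicate) and a line at the mean of the 3 log2 values. Obox6 and Obox8 stand far above the rest, and DRB replicate 2 (orange square) is the highest library for Obox3 and its pseudogenes.

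Among the copies known as egg-supplied transcripts, none was called and the levels were low. Obox5 was at 21.16, 24.59 and 10.15 FPKM in Con and at 8.67, 20.22 and 9.52 FPKM in DRB (limma adjusted p 0.5989), so the groups overlap. Obox1 was at 16.99, 11.13 and 2.78 FPKM in Con and at 17.74, 15.39 and 5.77 FPKM in DRB. Obox2 was at 14.85, 5.7 and 2.33 FPKM in Con and at 8.86, 5.9 and 3.61 FPKM in DRB. For both genes replicate 3 was the lowest library of each group and Con replicate 1 was far above Con replicate 3, a spread within Con wider than any difference between the groups. Their log2 fold changes were 0.44 ± 0.60 and -0.06 ± 0.57 SE (limma adjusted p 0.7594 and 0.9709), and both changed sign when single libraries were left out.

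Obox7, with the lowest level of the coding copies, had separate groups. It was at 2.83, 3.37 and 1.93 FPKM in Con and at 0.57, 1.13 and 0.88 FPKM in DRB. All DRB libraries lay below all Con libraries, with means of 2.71 ± 0.728 and 0.86 ± 0.281 FPKM (SD, n = 3). The log2 fold change of -0.99 ± 0.39 SE did not pass the limma test (adjusted p 0.2145, unadjusted p 0.02847). At this level the added 1 FPKM of the log scale takes up much of the difference.

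Obox3, the coding copy made by the embryo, was higher in each DRB library than in most Con libraries. It was at 3.59, 4.23 and 2.46 FPKM in Con and at 10.99, 26.45 and 3.92 FPKM in DRB. DRB replicate 3 lay below Con replicate 2, so the groups overlap. The means were 3.43 ± 0.896 and 13.8 ± 11.5 FPKM (SD, n = 3), with a log2 fold change of 1.43 ± 0.58 SE that was not called (limma adjusted p 0.2202, unadjusted p 0.03043).

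Obox3 is accompanied on chromosome 7 by 7 pseudogenes, Obox3-ps1 to Obox3-ps7, all of them tested. Obox3-ps1 to Obox3-ps6 align with Obox3 transcripts at 95% to 98.8% identity and Obox3-ps7 at 91%. Obox3-ps6 was called higher, and none of the other 6 was called in either direction. Of all tested genes 2.48% were called, 1.53% as higher and 0.95% as lower, and among the 15 tested members 1 was called higher and 0 lower.

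Obox3-ps6 (ENSMUSG00000093421.1, chr7:15480174-15481781, minus strand) is an unprocessed pseudogene. It rose from 0.88, 1.35 and 1.66 FPKM in Con to 7.11, 20.67 and 7.17 FPKM in DRB. Every DRB library was several times above the highest Con library, and DRB replicate 2 was above the other two. The means were 1.30 ± 0.393 and 11.7 ± 7.81 FPKM (SD, n = 3), and the log2 fold change was 2.31 ± 0.48 SE (adjusted p 0.03302 by limma). The values correspond to an estimated 16.8 to 30.7 fragments in Con and 140.8 to 397.3 in DRB. Across 14 alternative settings the fold change stayed between 1.84 and 2.92 and the limma adjusted p between 0.02914 and 0.2403, with a call in 7 of them. The call was kept without DRB replicate 3 (limma adjusted p 0.0385) and lost when any other single library was left out, at adjusted p 0.1004, 0.09086 and 0.07375 without Con replicates 1, 2 and 3 and at 0.0683 and 0.09071 without DRB replicates 1 and 2.

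How far these reads belong to Obox3-ps6 itself was not tested. Of its 100-base windows 32.6% occur in no other gene and 67.4% also occur in Obox3-ps5, while none is shared with Obox3. It lies on the same strand as Obox3 and inside its span, 46 bases from the annotated last exon of 1 Obox3 transcript (chr7:15479825-15480127). On its other side the next Obox3 exon begins 144 kb away.

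Obox3-ps5 has the least sequence of its own among Obox3 and its pseudogenes, 12.9% of its windows. It was at 8.33, 8.71 and 5.22 FPKM in Con and at 9.41, 70.78 and 10 FPKM in DRB. The groups do not overlap, but DRB replicates 1 and 3 were only slightly above Con replicate 2 and DRB replicate 2 stood far apart (log2 fold change 1.29 ± 0.65 SE, limma adjusted p 0.3259). Obox3-ps2, at 1.21, 1.66 and 0 FPKM in Con, was at 0.41, 23.33 and 3.07 FPKM in DRB (limma adjusted p 0.3822). Its DRB values thus reach from below most Con libraries to far above them.

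Obox3-ps4 was at 2.32, 2.22 and 0.51 FPKM in Con and at 1.17, 12.11 and 2.94 FPKM in DRB. Obox3-ps3 was at 1.13, 2.83 and 0.76 FPKM in Con and at 0.6, 8.67 and 1.61 FPKM in DRB. Obox3-ps1 was at 1.67, 2.72 and 1.77 FPKM in Con and at 1.59, 4.58 and 2.44 FPKM in DRB. In all of these the groups overlap, and only DRB replicate 2 exceeded Con clearly (limma adjusted p 0.4858, 0.7434 and 0.7963). Without that library the fold changes of Obox3-ps3 and Obox3-ps1 turned negative, at -0.25 and -0.02.

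Obox3-ps7 differs from the others in sequence, with all windows its own, and in pattern. It was at 8.63, 6.69 and 8.82 FPKM in Con and at 2.02, 9 and 3.75 FPKM in DRB. DRB replicates 1 and 3 lay below Con and DRB replicate 2 just above it, and the log2 fold change was -0.78 ± 0.48 SE (adjusted p 0.4327 by limma).

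DRB replicate 2 was the highest library for all 8 of these rows, Obox3 and its 7 pseudogenes on chromosome 7. Summed, they came to 27.76, 30.41 and 21.2 FPKM in Con and to 33.3, 175.6 and 34.9 FPKM in DRB. DRB replicates 1 and 3 were thus slightly above the Con range and DRB replicate 2 several times above it, so the mean of 81.3 ± 81.7 FPKM (SD, n = 3) in DRB, against 26.5 ± 4.74 in Con, is set by 1 library. The cause of its high values was not tested. The processed pseudogene Obox3-ps8 on chromosome 17 was listed at 0 in every library.

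**Figure D2:**
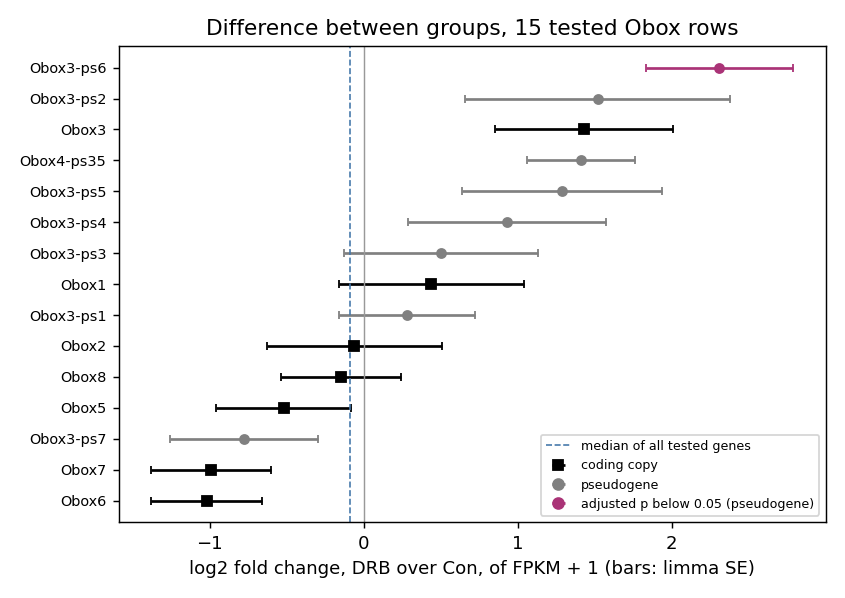
Log2 fold change of FPKM + 1, DRB over Con, for the 15 tested Obox rows with limma's standard error (squares coding copies, circles pseudogenes, the coloured circle the row called at adjusted p below 0.05, the dashed line the median of all tested genes). Obox3-ps6 at 2.31 is the row furthest from 0, and Obox6 and Obox7 are the lowest at -1.02 and -0.99.

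Obox4 has 39 rows in the files, all with pseudogene names, and 1 of them carried nearly all of the signal. Obox4-ps35 (ENSMUSG00000092576.3, chr7:15820167-15825815, minus strand) is annotated as a lincRNA of 680 bases, and it lies next to Obox6. It was at 8.21, 9.08 and 5.31 FPKM in Con and at 23.26, 21.67 and 18.91 FPKM in DRB. All DRB libraries were more than double any Con library, and the replicates lay close together, with means of 7.53 ± 1.97 and 21.3 ± 2.20 FPKM (SD, n = 3). The log2 fold change was 1.41 ± 0.35 SE, just outside the threshold (limma adjusted p 0.06312). It was called with median-of-ratios scaling of the libraries (adjusted p 0.04231) and with a minimum of 5 FPKM (adjusted p 0.04454), and over all 14 alternatives adjusted p ranged up to 0.2185 and the fold change from 1.20 to 1.54. All its windows are its own, its best alignment with another Obox4 row was at 72.2% identity, and its values correspond to an estimated 60.5 to 279.1 fragments.

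Of the other 38 Obox4 rows, 32 were listed at 0 in every library. The other 6 were between 0.07 and 0.15 FPKM in 8 library values in all, an estimated 1 to 3.3 fragments each, and were not tested. Many of these copies are near identical: Obox4-ps12 to Obox4-ps23 are 12 copies in tandem that begin 11079 to 11369 bases apart, and 7 Obox4 rows have no 100-base window of their own. Of the 19 rows with less than 50% of windows of their own 15 were at 0 throughout, and so were 8 of the 10 with at least 90%. The sources used here do not give how reads that fit several copies were handled, so a value of 0 for the near-identical copies says nothing of their expression. For the copies with their own sequence it says that they were listed at 0 at the depth given above.

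**Figure D3:**
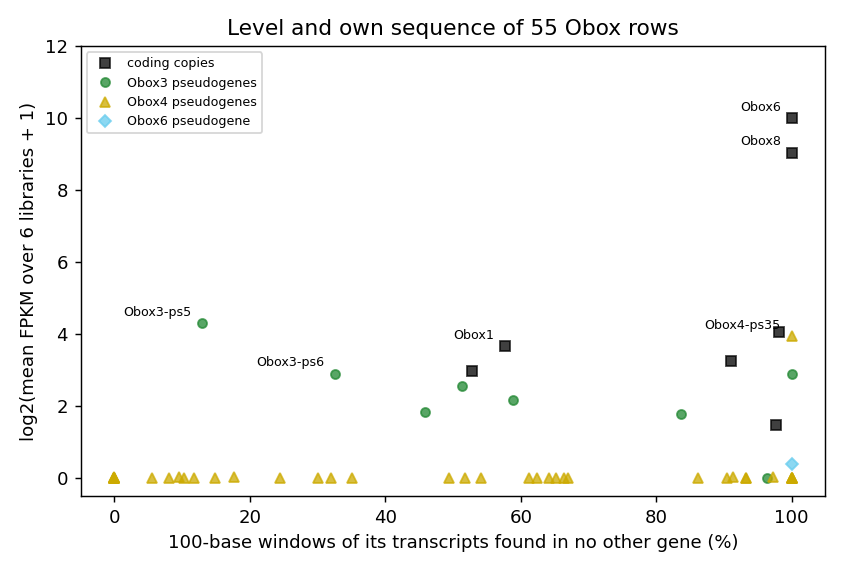
Mean level over the 6 libraries, as log2(FPKM + 1), of all 55 Obox rows against the share of 100-base windows of their transcripts found in no other annotated gene. Obox6, Obox8 and Obox4-ps35 have only sequence of their own, and Obox3-ps5 (12.9%) and Obox3-ps6 (32.6%) share most of theirs. The Obox4 pseudogenes other than Obox4-ps35 lie at or near 0 over the whole range of shares.

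The remaining row, Obox6-ps1 on chromosome 17 (chr17:61360573-61361614), is a processed pseudogene that aligns with Obox6 at 95.7% identity but has all its windows to itself. It was at 0.3, 0.28 and 0.41 FPKM in Con and at 0.15, 0.37 and 0.31 FPKM in DRB, an estimated 3.1 to 7.9 fragments, and did not reach the filter. Its level was thus far below that of its parent gene in every library.

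Over the 15 tested rows 9 had a positive log2 fold change, 2 of 7 coding copies and 7 of 8 pseudogenes, against 44.01% of all 11893 genes tested. The median was 0.44, against -0.09 for all tested genes. The groups did not overlap for 5 rows, 3 higher (Obox3-ps5, Obox3-ps6 and Obox4-ps35) and 2 lower (Obox6 and Obox7), where 23.8% of all tested genes had groups that did not overlap, 9.85% higher and 13.9% lower. At an unadjusted limma p below 0.05 there were 5 rows, 3 higher (Obox3, Obox3-ps6 and Obox4-ps35) and 2 lower (Obox6 and Obox7), against 18.1% of all tested genes, 7.53% higher and 10.5% lower. All 15 reached 1 FPKM in at least 1 library of each group, and the other 40 rows did not pass the filter of at least 1 FPKM in at least 3 libraries. Obox3-ps1 to Obox3-ps6 share 100-base windows with other Obox rows, and so do all coding copies but Obox6 and Obox8. These counts may therefore not be counts of independent measurements.

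**Figure D4:**
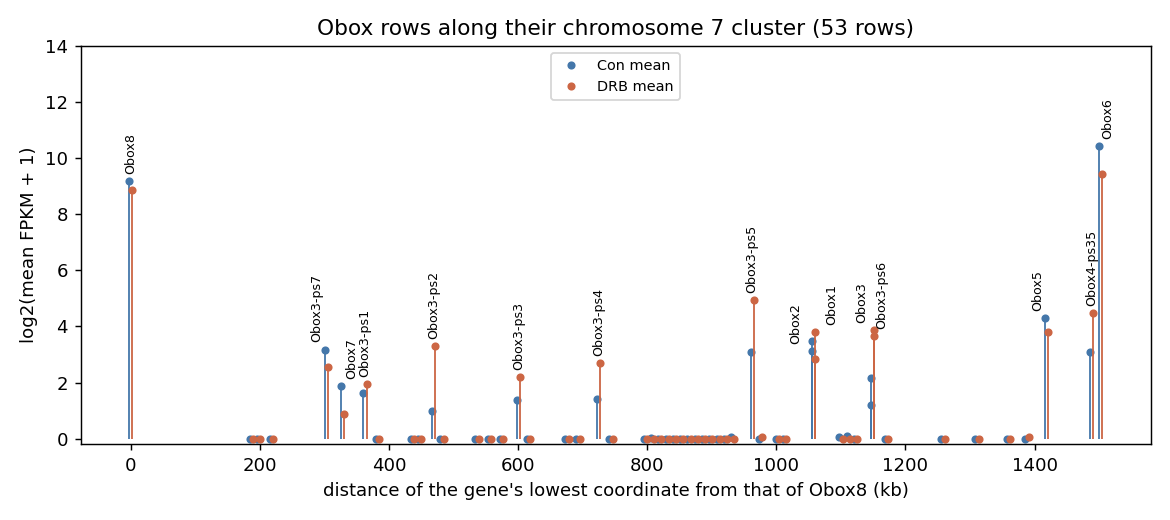
Mean FPKM per group, as log2(mean FPKM + 1), of the 53 Obox rows on chromosome 7 against the distance of each gene's lowest coordinate from that of Obox8, in kb (blue Con, orange DRB; Obox3 is placed at its far last exon). Signal is highest at both ends, in Obox8 and Obox6, and the tandem Obox4 copies in the middle are at or near 0.

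The cluster spans 1508 kb from Obox8 to Obox6, and 41 genes of other names lie in it or are among the nearest 5 beyond its ends. Of these 9 were tested, 1 was called higher and none lower, against 1.53% and 0.95% of all tested genes. At an unadjusted limma p below 0.05 there were 3, against 18.1% of all tested genes. The one called was Nlrp5-ps (chr7:14530652-14622479), a transcribed pseudogene near the Obox8 end, which rose from 2.86, 3.05 and 2.98 FPKM in Con to 15.85, 11.73 and 10.98 FPKM in DRB (log2 fold change 1.79 ± 0.38 SE, limma adjusted p 0.03439). Its DRB libraries were all several times above Con, but the call was lost without any 1 of the 6 libraries. Crxos, a paired-like homeobox gene beyond Obox6 (chr7:15882617-15904020), was at 4889.3, 10104.05 and 8035.59 FPKM in Con and at 5243.37, 5689.6 and 6976.8 FPKM in DRB. Its FPKM exceeded that of Obox6 in every library, and its groups overlap (log2 fold change -0.31 ± 0.31 SE, limma adjusted p 0.6669).

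Other homeobox genes of the oocyte and early embryo were set beside the family. Of 59 listed 58 were in the files and 25 were tested. Limma called 0 of these in either direction, against 2.48% of all tested genes. At an unadjusted limma p below 0.05 there were 4, against 18.1% of all tested genes. Their median log2 fold change was -0.34, against -0.09 for all tested genes. Crxos and Cphx3, an oocyte homeobox gene, were the most abundant. Cphx3 was at 111.78, 128.89 and 79.81 FPKM in Con and at 133.18, 132.55 and 106.38 FPKM in DRB, with an adjusted p of 0.7244 by limma. The homeobox gene Duxf3, known to switch on 2-cell genes, was too low to be tested, at 0.19, 0 and 0.41 FPKM in Con and 0 in all DRB libraries.

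Of 46 regulators of genome activation 41 were tested, and 1 was called higher and 0 lower, against 1.53% and 0.95% of all tested genes. At an unadjusted limma p below 0.05 there were 6, against 18.1% of all tested genes. The median log2 fold change was 0.13, against -0.09 for all tested genes. The regulator called was the zinc-finger gene Zfp352, known from the 2-cell stage. It had 7.69, 3.59 and 2.03 FPKM in Con and 41.07, 55.02 and 36.94 FPKM in DRB (log2 fold change 3.18 ± 0.43 SE, limma adjusted p 0.00453). Dppa2, an activator upstream of 2-cell genes, was at 911.65, 574.77 and 552.88 FPKM in Con and at 474.9, 446.95 and 382.39 FPKM in DRB. Its groups do not overlap, but it was not called (limma adjusted p 0.2637). Nr5a2, a nuclear receptor of the cleavage embryo, was at 65.58, 56.19 and 89.22 FPKM in Con and at 66.87, 55.31 and 36.65 FPKM in DRB. Zscan4d, of a 2-cell zinc-finger family, was at 7.26, 5.07 and 3.03 FPKM in Con and at 5.04, 19.38 and 2.47 FPKM in DRB. Neither was called (limma adjusted p 0.5397 and 0.8234). For Zscan4d DRB replicate 2 was the highest library, but its relatives did not share this. Zscan4a, Zscan4c and Zscan4f were highest in DRB replicate 1. Zscan4b and Zscan4e, not tested, were highest in DRB replicate 3 and Con replicate 1.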

How the data were processed

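Each of the 6 deposited files holds 1 FPKM value for each of 55335 genes, per the file headers. Reads were handled with cutadapt 1.16 and STAR on mm10, per the submitters' processing notes; the sources used here name neither the tool behind the FPKM nor its handling of reads that fit several genes. Gene positions and transcripts came from GENCODE M21 (GRCm38, the assembly of mm10), and all 55 Obox IDs matched.

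The test was limma 3.58.1 (R 4.3.3), two-sided, with group as the single term and a trend of variance on level. It used log2(FPKM + 1) for the 11893 genes that reached 1 FPKM in 3 or more libraries. P-values were adjusted over all tested genes by Benjamini-Hochberg and called below 0.05. Depth was estimated from single-fragment steps of genes with 1 transcript, with the length shortened by 160 to 180 bases. FPKM divides by the library's total, so it is relative.

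The members and lists were chosen with earlier results of these data known. Named were all Obox rows reaching 1 FPKM, called members of the homeobox, activation and neighbour lists up to 3 each way or else the 2 most abundant, 5 further regulators and the most abundant marker of each cell type. Figures were made with Python 3.11.15 and matplotlib 3.10.9.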

Additional observations from a re-analysis of the deposited data

How the results depend on the processing

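Over all tested genes, 182 were called higher and 113 lower. A pseudocount of 0.1 gave 113 and 51, leaving out the filter 6 and 0. The counts were 135 and 75 with a mean of at least 1 FPKM, 191 and 73 without mitochondrial genes and 151 and 75 without the trend, and ranged over 34 to 139 and 13 to 81 without 1 library. Obox rows called higher were 1, and 0 with no filter, 2 with a minimum of 5 FPKM or median-of-ratios scaling, and 0 to 1 without 1 library; none was called lower in any of the 14 alternatives. Called regulators of genome activation were 1, and 0 with no filter, 2 with the minimum of 5 FPKM and 2 with median-of-ratios scaling; called neighbours were 1, and 0 with no filter and 0 in each fit without 1 library. The Obox sum averaged 2019 FPKM in Con and 1295 in DRB, and 653.6 and 605.7 without Obox6. Log2 fold changes changed sign for 5 Obox rows. Obox2 (-0.06) went to 0.04 with median-of-ratios scaling, 0.07 without mitochondrial genes, 0.52 without Con replicate 1 and 0.22 without DRB replicate 3. Over fits without 1 library it ranged from -0.6 to 0.52, Obox1 from -0.21 to 0.91, Obox8 from -0.59 to 0.27, Obox3-ps1 from -0.02 to 0.54 and Obox3-ps3 from -0.25 to 1.05. Without mitochondrial genes the median of all tested genes moved from -0.093 to 0.018. The cause of these changes was not tested.

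With the replicate block 127 genes were called higher and 44 lower, and 0 Obox rows and 0 neighbours were called (Obox3-ps6 at adjusted p 0.05637). Same-numbered libraries deviated from their group means with correlations of -0.047, 0.053 and -0.051, so the numbers were not taken as pairs.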
